A study of Mus musculus with 4 samples.

Results

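The glycolytic enzymes of mouse dorsal skin were read on 4 arrays, from the cytosolic enzymes Hk2, Pfkm, Aldoa, Tpi1, Gapdh, Pgk1, Pgam2, Eno1, Eno3 and Ldha. Members were taken by gene symbol, as every probe set (the group of short probes that measures 1 transcript) annotated to exactly 1 of these 10 genes. This gave 14 probe sets of 9 genes, out of 45037 probe sets outside the array's own controls and of 17097 genes with a single-gene probe set. Aldoa had 4 probe sets, Tpi1 and Pgk1 had 2 each, and the other 6 genes had 1. No single-gene probe set carried the symbol Eno1, and it was not analysed here.

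Glycolysis splits glucose into pyruvate in the cytosol and yields ATP without oxygen, and lactate dehydrogenase then turns pyruvate into lactate. Several steps are run by isoforms from different genes. Eno3, Pgam2 and Pfkm are the enolase, phosphoglycerate mutase and phosphofructokinase of muscle, while Gapdh, Aldoa, Pgk1, Tpi1 and Ldha are used in most tissues, with Aldoa also the aldolase of muscle. Hk2 is the inducible hexokinase of muscle, fat and proliferating cells. Skin epidermis is known for a high rate of glycolysis, and Gapdh was the endogenous control of the study's real-time PCR.

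The mice were male C3H, 8 weeks old at purchase, with shaved dorsal skin. The control group received Milli-Q water, the vehicle, and the TCQA group received 3,4,5-tri-O-caffeoylquinic acid at 1%, a plant polyphenol tested for hair pigmentation; both were applied daily for a month and the labels give day 30. Each group had 5 mice and 2 arrays, called here Control 1, Control 2, TCQA 1 and TCQA 2, and values of the TCQA arrays are given in that order. Whether animals were pooled for an array is not given in the sources used here. The spread behind each p-value is that of the arrays and may be of technical origin.

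Control 1 stood apart from the other 3 arrays before any comparison of groups. Over all 45037 probe sets its Pearson correlation with each of the others was between 0.412 and 0.413, while the other 3 arrays correlated at 0.884 to 0.956. Control 1 held 522 probe sets at a log2 value of 8 or above, and the others held 23 to 31. The hybridization spike-ins, foreign transcripts added in fixed amounts, were dimmer on Control 1 (median log2 value 6.71) than on the other arrays (10.41 to 10.78). The 24 probe sets of the poly-A spike-ins, a separate set, went the other way, with medians of 2.24 on Control 1 and 1.53 to 1.78 elsewhere. Among them Dap had 5.43 and 1.36 to 1.78, while Lys had 1.68 and 1.41 to 1.66. Keratinocyte markers, which define the labelled tissue, had a median of 8.08 on Control 1 and of 1.94 to 2.47 elsewhere, where the median of all probe sets was 2.49 to 2.55. Hair follicle markers, also part of dorsal skin, went the other way, with a median of 2.23 on Control 1 and of 2.95 to 3.09 elsewhere. They lay near the median of all probe sets, which was 2.30 on Control 1. The median of Control 1 minus Control 2 was -0.77 for follicle markers, 4.73 for keratinocyte markers and -0.33 over all probe sets. The skin markers thus did not rank the arrays alike, but the follicle part rests on a small difference between dim values. The fold changes of the glycolytic enzymes are given with and without Control 1, since the differences between the groups rest on it.

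All 14 glycolytic probe sets had their highest value on Control 1, and the other 3 arrays lay close together. The Control 1 value exceeded each of the other arrays by at least 2-fold for 14 of 14 probe sets, against 15.9% of all probe sets, and by at least 16-fold for 13 of 14, against 2.67% of all. The exception was the second Pgk1 probe set. Among Control 2, TCQA 1 and TCQA 2, the range of a glycolytic probe set was 0.13 to 1.19 on the log2 scale, with a median of 0.34, beside a median of 0.40 over all probe sets. All 14 lay above the array's median on Control 1, and 9, 11 and 10 did so on Control 2, TCQA 1 and TCQA 2. The deposited values carry no detection call, so whether a probe set was above background on these 3 arrays was not determined. The 23 nonspecific control probe sets had medians of 1.12 to 1.69 over the 4 arrays, but single ones were far brighter. For TCQA 1 and TCQA 2 the brightest reached 7.14 and 7.53, above every glycolytic probe set there (at most 6.32 and 6.37). Its Control 2 value was 6.41, which only Gapdh exceeded, at 6.65. Its Control 1 value was 5.23, which all members but the second Pgk1 probe set (4.44) exceeded.

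**Figure D1:**
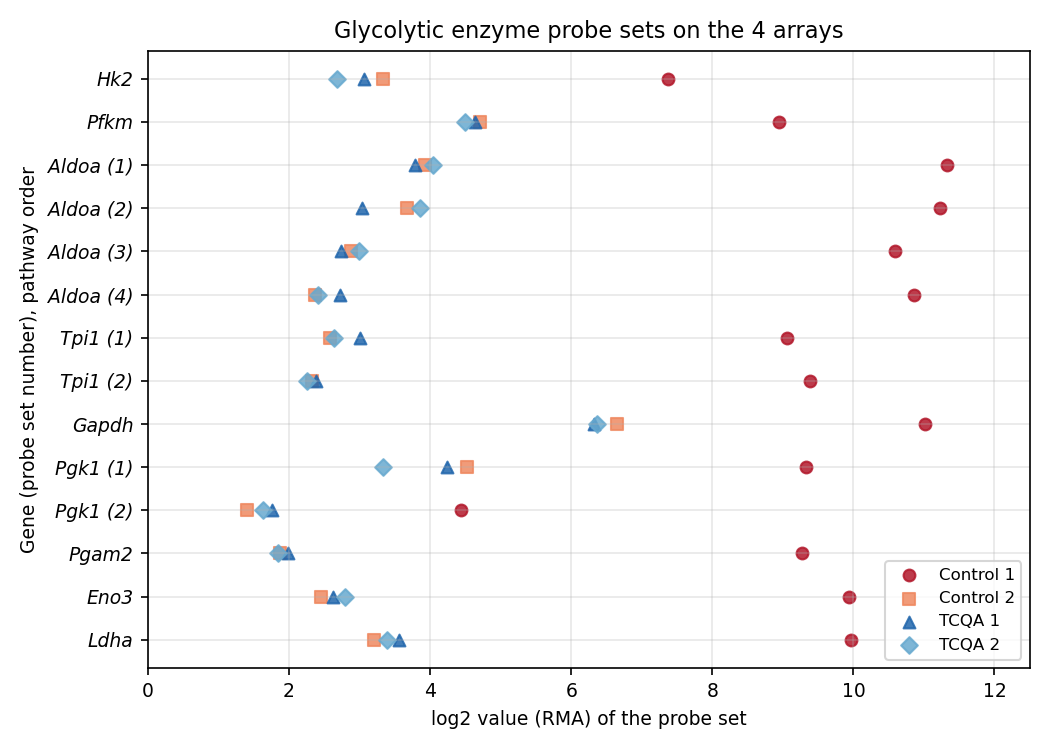
Log2 value (RMA) of each of the 14 glycolytic probe sets, in pathway order, on Control 1, Control 2, TCQA 1 and TCQA 2, 1 point per array. Every Control 1 point lies at least 2.68 above the highest of the other 3 arrays.

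The entry steps are run by kinases that trap glucose and commit it to the pathway. Hk2, the hexokinase that phosphorylates glucose, read 7.37 on Control 1 and 3.34 on Control 2, with 3.06 and 2.68 on the TCQA arrays (probe set 1422612_PM_at). Both TCQA arrays lay below both controls, but by 0.27 and 0.65 below Control 2 and by far more below Control 1. Pfkm, the muscle phosphofructokinase of the committed step, read 8.95 and 4.71 on the controls and 4.64 and 4.49 on the TCQA arrays (1416780_PM_at). Its 3 lower arrays spanned 0.22, and its lower TCQA array was 0.22 below Control 2.

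Aldoa, the aldolase that splits fructose 1,6-bisphosphate, had 4 probe sets, each with 1 high and 3 low arrays. Its brightest probe set (1416921_PM_x_at) read 11.33 on Control 1 and 3.93 on Control 2, with 3.79 and 4.04 on the TCQA arrays. The other 3 Aldoa probe sets read 10.58 to 11.23 on Control 1 and 2.37 to 3.86 on the other arrays. Control 1 was 7.39 to 8.49 above Control 2 on the log2 scale over the 4 probe sets, and Control 2 lay between the TCQA arrays for 3 of them. All 4 carry the _x_ suffix, which marks probes that can bind other transcripts. Tpi1, the isomerase that interconverts the triose phosphates made by aldolase, read 9.06 on Control 1 and 2.59 on Control 2, with 3.01 and 2.63 on the TCQA arrays for its brighter probe set (1452927_PM_x_at). Its other probe set (1415918_PM_a_at) read 9.38, 2.32, 2.38 and 2.26 in the same order, a range of 0.13 over the last 3 arrays.

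Gapdh and Pgk1 run the first steps that yield energy. Gapdh, the glyceraldehyde-3-phosphate dehydrogenase, read 11.02 on Control 1 and 6.65 on Control 2, with 6.32 and 6.37 on the TCQA arrays (1418625_PM_s_at). Both TCQA arrays were below Control 2, by 0.33 and 0.28, and Control 1 was 4.37 above Control 2. The array's 3 control probe sets for Gapdh, placed toward the 3′ end, the middle and the 5′ end of the transcript, gave the same order of Control 1 against the others. The 3′ probe set read 10.87 on Control 1 and 5.63 on Control 2, with 5.29 and 4.50 on the TCQA arrays. The 3′ value minus the 5′ value, which grows when RNA is degraded or labelled short, was 2.09 on Control 1 and 2.18 on Control 2, with 1.99 and 1.67 on the TCQA arrays. For Gapdh this measure did not set Control 1 apart. For Actb, the cytoskeletal actin with the same kind of controls, it was 2.53 on Control 1 and 0.78 to 1.01 on the others. The 3′ and 5′ values of Actb were 9.37 and 6.84 on Control 1. On the others they were only 3.44 to 3.83 and 2.60 to 2.93. A difference between such dim values can be compressed, so the Actb measure cannot be compared between Control 1 and the others. RNA quality was not tested.

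Pgk1, the phosphoglycerate kinase that makes the first ATP of the pathway, had the widest spread off Control 1. Its first probe set (1417864_PM_at) read 9.33 on Control 1 and 4.52 on Control 2, with 4.24 and 3.33 on the TCQA arrays. The difference from Control 2 was -0.28 on TCQA 1 and -1.19 on TCQA 2, so it came mostly from 1 TCQA array. The second Pgk1 probe set (1439435_PM_x_at) went the other way against Control 2, with 1.40 there and 1.76 and 1.63 on the TCQA arrays. That probe set read 4.44 on Control 1, so all 3 others lay below it as well.

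The lower steps hold the most muscle-restricted isoforms. Pgam2, the muscle phosphoglycerate mutase, read 9.27 on Control 1 and 1.88 on Control 2, with 1.98 and 1.85 on the TCQA arrays (1418373_PM_at), so Control 2 lay between the TCQA arrays. Eno3, the muscle enolase, read 9.94, 2.46, 2.62 and 2.79 in that order (1417951_PM_at), with both TCQA arrays above Control 2. Ldha, the lactate dehydrogenase subunit that favours lactate, read 9.97, 3.20, 3.56 and 3.39 (1419737_PM_a_at), again with both TCQA arrays above Control 2. Control 1 minus Control 2 was 7.39 for Pgam2, 7.48 for Eno3 and 6.77 for Ldha on the log2 scale.

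The gene starts of 4 members are shown because they stand for both kinds of isoform, from 250 bases before to 50 after the annotated start (RefSeq, GRCm38.p6). RefSeq windows were found for the 9 measured genes, 15 windows in all. The letters searched on both strands were ACGTG, the core of the hypoxia response element, and CAGCTG, an E-box form bound by muscle regulators. Capitals mark matches to either of them. CACGTG, another E-box, contains ACGTG, so those matches overlap. The 4 windows are Pgam2 at chr11:5803747-5804046 on the minus strand, Eno3 at chr11:70656926-70657225 on the plus strand, Pgk1 at chrX:106186850-106187149 on the plus strand, and the first of 2 Ldha windows at chr7:46845554-46845853 on the plus strand.
Pgam2: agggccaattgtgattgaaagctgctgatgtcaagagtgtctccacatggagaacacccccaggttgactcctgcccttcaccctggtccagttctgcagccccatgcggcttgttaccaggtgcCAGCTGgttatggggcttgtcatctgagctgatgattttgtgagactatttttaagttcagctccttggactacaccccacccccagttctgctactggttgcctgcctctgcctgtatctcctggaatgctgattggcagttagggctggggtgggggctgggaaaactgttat
Eno3: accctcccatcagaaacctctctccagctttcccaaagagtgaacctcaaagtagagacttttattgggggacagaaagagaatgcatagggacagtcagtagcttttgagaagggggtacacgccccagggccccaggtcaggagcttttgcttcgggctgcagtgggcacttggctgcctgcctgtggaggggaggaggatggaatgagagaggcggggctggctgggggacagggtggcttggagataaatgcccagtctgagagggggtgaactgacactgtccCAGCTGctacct
Pgk1: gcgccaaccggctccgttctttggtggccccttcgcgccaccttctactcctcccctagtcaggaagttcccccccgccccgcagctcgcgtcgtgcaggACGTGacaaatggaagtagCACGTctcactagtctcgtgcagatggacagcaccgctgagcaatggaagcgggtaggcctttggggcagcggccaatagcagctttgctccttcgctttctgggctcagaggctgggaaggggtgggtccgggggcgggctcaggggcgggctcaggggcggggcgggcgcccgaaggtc
Ldha: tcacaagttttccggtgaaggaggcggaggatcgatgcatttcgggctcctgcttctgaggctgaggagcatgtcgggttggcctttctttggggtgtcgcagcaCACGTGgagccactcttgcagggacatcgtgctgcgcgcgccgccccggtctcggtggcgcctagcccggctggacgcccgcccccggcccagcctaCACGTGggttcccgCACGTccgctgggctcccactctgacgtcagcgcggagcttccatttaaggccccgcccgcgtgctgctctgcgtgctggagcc
ACGTG was present in windows of 6 genes, namely Aldoa, Gapdh, Hk2, Ldha, Pfkm and Pgk1, and 21.8% of 27025 genes have it in a window. CACGTG was present for Ldha and Pfkm, against 8.09% of genes. CAGCTG was present for Aldoa, Eno3 and Pgam2, against 18.3% of genes. Tpi1 had neither. These matches describe letters only, and both kinds of window belong to genes that had their highest value on Control 1.

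Comparing TCQA with control, 0 of 14 glycolytic probe sets passed limma's adjusted p under 0.05, which 0% of the array passed. None passed the thresholds of the study, 2-fold with an unadjusted p of at most 0.05, against 0.122% of all probe sets lower with TCQA and 0.135% higher. No member had an unadjusted p under 0.05 either, against 0.313% of the array. The limma adjusted p was 0.923 for all 14. All 14 fitted log2 fold changes (TCQA minus control) were nonetheless negative, against 38.9% of the array, and all 14 were at -1 or below, against 11.3%, with 0 of 14 at 1 or above, against 1.04%. They ran from -4.05 for an Aldoa probe set to -1.23 for the second Pgk1 probe set. Without Control 2, so that Control 1 was the lone control and the spread came from the TCQA pair, 14 of 14 passed the limma adjusted p as lower, at 6.9e-04 to 2.4e-03, against 16.1% of the array. After a further quantile normalization of the 4 arrays the 9 genes ranged from -2.82 for Aldoa to -0.84 for Pfkm, with Gapdh at -1.16, and 0 passed.

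Every fitted difference was larger than its SE, which was wide. Gapdh had a log2 fold change of -2.49 (SE 1.49), the first Pgk1 probe set -3.14 (SE 1.66), Eno3 -3.49 (SE 2.52) and the brightest Aldoa probe set -3.71 (SE 2.49). Between the 2 control arrays the SD of a probe set was 2.15 to 6.01, and between the 2 TCQA arrays it was 0.03 to 0.64. For 14 of 14 probe sets the gap between the controls was wider than the difference between the groups. This follows wherever Control 1 stands far above near-level other arrays, so it is no trait of these genes, and no share over the array was computed. Both TCQA arrays lay below both controls for 4 of 14 probe sets, those of Hk2, Pfkm and Gapdh and the first of Pgk1, against 10.9% of the array. Control 1 was highest for all 14, so this count only asks whether both TCQA arrays lay below Control 2. The share of the array for that was 33.8%, so the count does not set these probe sets apart.

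**Figure D2:**
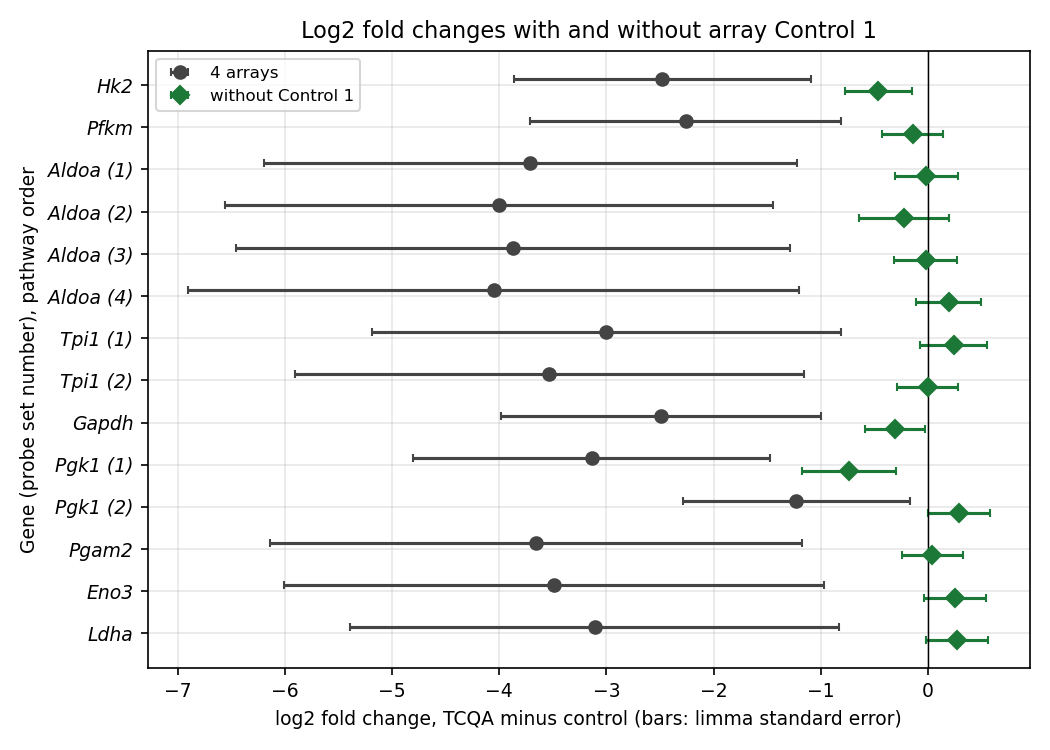
Log2 fold change (TCQA minus control) of the 14 glycolytic probe sets from the fit of all 4 arrays, with bars of 1 SE, and from the fit without Control 1. With all arrays they lie between -4.05 and -1.23, and without Control 1 between -0.74 and 0.29.

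Without Control 1, the fold changes of the same probe sets lay on both sides of 0. They ran from -0.74 (SE 0.44) for the first Pgk1 probe set to 0.29 (SE 0.29) for the second, with 8 negative and 6 positive. The unadjusted p was 0.152 to 0.987 and the limma adjusted p was 1 for each, with 1 residual degree of freedom and Control 2 assumed to vary like the TCQA pair. The value was -0.31 (SE 0.28) for Gapdh, -0.46 (SE 0.32) for Hk2, 0.25 (SE 0.29) for Eno3 and 0.27 (SE 0.29) for Ldha. For 9 of 14 probe sets the gap between the 2 TCQA arrays was wider than this fold change. No share over the array was computed for that count or for the signs. Over all probe sets the median fold change without Control 1 was -0.022. On Control 2 and the TCQA arrays the median of the 14 was 2.89 to 3.04, beside array medians of 2.49 to 2.55. Whether they were above background there was not determined, so fold changes near 0 do not show that TCQA left these transcripts unchanged. Both TCQA arrays were below Control 2 for 4 probe sets, against 33.8% of the array, and above it for 5, against 27.2%. For none were both at least 2-fold below it, which 0.0711% of the array were, nor at least 2-fold above it, which 0.0244% were. None passed the thresholds of the study without Control 1, against 0.302% of the array. By the median of 1 probe set per gene, the members had a log2 fold change of -3.11 with all arrays and -0.016 without Control 1, beside 0.08 and -0.035 over all genes, of which 43.8% had a negative fold change with all arrays.

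**Figure D3:**
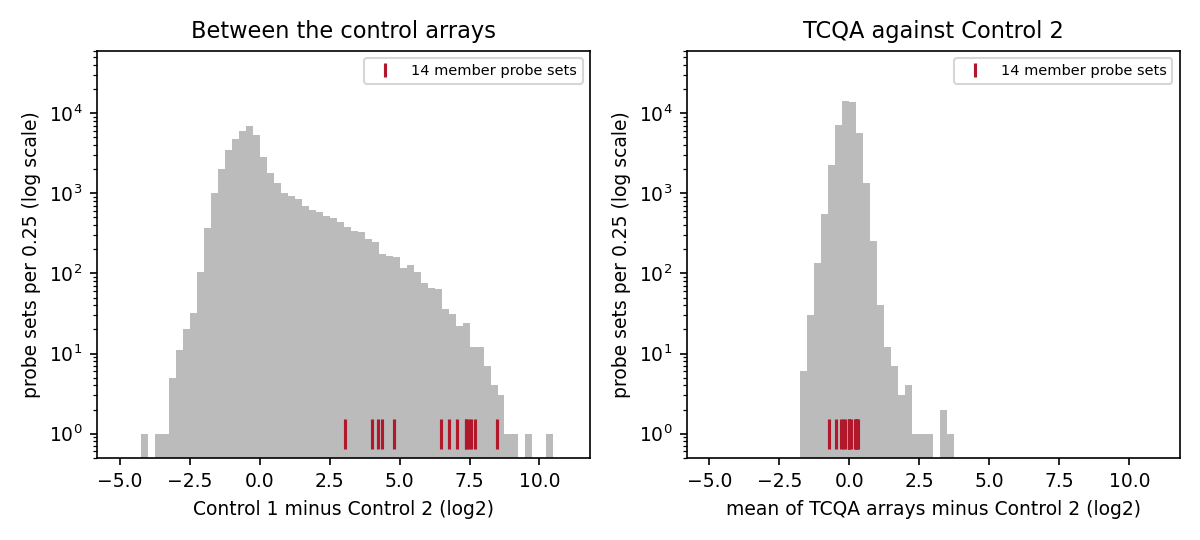
Histograms over 45037 probe sets (log count axis, bins of 0.25) of Control 1 minus Control 2, left, and of the mean of the TCQA arrays minus Control 2, right, both in log2 units, with the 14 glycolytic probe sets as red ticks. The ticks lie between 3.04 and 8.49 on the left, in the upper tail, and between -0.74 and 0.29 on the right, within the bulk.

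Muscle isoforms and general isoforms were then set against each other on each array. The mean log2 value of Eno3, Pgam2 and Pfkm was 9.39 on Control 1 and 3.02 on Control 2, with 3.08 and 3.05 on the TCQA arrays. The mean of Gapdh, Aldoa, Pgk1, Ldha and Tpi1 (1 probe set each, the brightest) was 10.14, 4.18, 4.18 and 3.95 on the same arrays. Both means were high on Control 1 and nearly level over the other 3. Only the difference between arrays bears on the comparison, since levels of different probe sets are not on 1 scale. The muscle mean minus the general mean was -0.76 on Control 1 and -1.16 on Control 2, with -1.10 and -0.91 on the TCQA arrays, so both TCQA arrays lay between the controls. It averaged -0.96 ± 0.29 (SD, n = 2) in the controls and -1.0 ± 0.14 (SD, n = 2) with TCQA. The difference of -0.045 was smaller than either spread, and without Control 1 it was 0.16. No test was made of this score, and 2 arrays against 2 cannot go below p = 0.333 in an exact two-sided permutation test.

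From Control 2 to Control 1, the muscle mean differed by 6.37 and the general mean by 5.96. By gene it ran from 4.24 for Pfkm to 7.48 for Eno3 among the muscle isoforms and from 4.37 for Gapdh to 7.39 for Aldoa among the general ones. Counting Hk2 and Aldoa with the muscle isoforms made the TCQA minus control difference of the 2 means -0.18, and 0.067 without Control 1. Every gene of both kinds had its highest value on Control 1.

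The other isoforms of the same steps did not all share this difference between the controls. Pkm, the pyruvate kinase of most tissues and the only step of the lower pathway outside the members, read 8.27 on Control 1 and 2.59 to 2.78 elsewhere. Ldhb, the lactate dehydrogenase subunit of heart, had Control 1 above Control 2 by 2.11 and by 3.69 in its 2 probe sets. Pfkp, the platelet phosphofructokinase, read 5.67 on Control 1 and 2.67 to 2.92 elsewhere in its brighter probe set, while in the other Control 1 minus Control 2 was -0.70. Bpgm, the red cell bisphosphoglycerate mutase, differed between the controls by 3.20, 2.46 and -0.10 over its 3 probe sets. By contrast the liver phosphofructokinase Pfkl differed between the controls by -0.60 to 0.65 over its 3 probe sets, the brain aldolase Aldoc by -0.38 and -0.18, the neuronal enolase Eno2 by -0.53, and the testis forms Gapdhs and Pgk2 by 0.05 and -0.25. The liver pyruvate kinase Pklr was lower on Control 1, by 0.92 to 1.56. Eno1b, which the annotation lists apart from Eno1 and which is no member, read 6.60 on Control 1 and 4.57 to 4.94 on the others. These are differences between 2 arrays, with no replicate. Several isoforms that differed little were dim on all 4 arrays. Pgk2 read 1.20 to 1.53, Eno2 1.53 to 2.06, Gapdhs 2.07 to 2.90 and the second Aldoc probe set 1.48 to 1.84. The first Aldoc probe set read 3.11 to 3.55 and those of Pfkl 3.04 to 4.22. Whether they were above background was not determined, so small differences do not show that these transcripts were level.

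Of 19 other glycolysis genes listed, 15 had a probe set. Of these 10 had a positive and 5 a negative fold change with TCQA, against 43.8% of all genes with a negative one. Their median log2 fold change was 0.12 with all arrays and 0.098 without Control 1. Control 1 was at least 2-fold above each other array for 4 of the 15, against 19.9% of all genes, and at least 16-fold for 1, Pkm, against 3.15%. The largest fold changes were those of Pkm (-2.74), Bpgm (-1.52) and Pfkp (-1.36), which without Control 1 were 0.098, 0.085 and 0.14. None of the 15 passed the limma adjusted p or the thresholds of the study.

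Transporters of glucose and lactate bring the substrate in and carry the product out. The 6 transporter genes had medians of 3.89 on Control 1 and 2.45 to 2.75 on the others, and a median log2 fold change of -0.62 with all arrays and 0.0044 without Control 1. The sign of this median turned with the probe set chosen: it was -0.080 with each gene's probe sets averaged and 0.19 by the probe set brightest without Control 1. Slc2a1, the basal glucose transporter of skin and red cells, read 4.49 on Control 1 and 3.02 on Control 2, with 3.24 and 2.80 on the TCQA arrays, so Control 2 lay between the TCQA arrays. The monocarboxylate transporter Slc16a1 had a fold change of -1.34, and -0.074 without Control 1. The transporter Slc2a3 had -0.77, and -0.32 without Control 1.

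Gapdh was read beside 10 other genes in wide use as references for quantification. All 10 had negative fold changes, against 43.8% of all genes, with a median of -2.21. Control 1 was at least 2-fold above each other array for 9 of them, against 19.9% of all genes. Actb read 9.02 on Control 1 and 2.58 to 2.94 on the others. The exception, named after its values were seen, was Gusb, a lysosomal glucuronidase, at 2.31 and 1.74 on the controls and 1.78 and 1.68 on the TCQA arrays. Without Control 1 the median of the 10 was 0.053 and Gapdh was -0.31. The largest fold changes were those of the translation genes Eef1a1 (-3.90) and Rplp0 (-3.52) and of the cyclophilin Ppia (-3.0), and without Control 1 they were -0.26, 0.36 and -0.95. None passed the limma adjusted p or the thresholds of the study.

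Markers of several cell types, but not of all, were high on Control 1 as the glycolytic enzymes were. Over all genes, Control 1 was at least 2-fold above each other array for 19.9%. Of 19 skeletal muscle markers, 18 had a probe set, and in 18 of 18 Control 1 was at least 2-fold above each other array. Their summed log2 value was 173.2 on Control 1 and 54.6 to 59.0 on the others. Acta1, the skeletal actin, read 11.63 on Control 1 and 1.81 to 2.07 on the others. For keratinocyte markers the count was 9 of 12, with sums of 79.0 on Control 1 and 29.8 to 33.7 on the others. For adipocyte markers it was 4 of 7, with sums of 35.4 and 21.5 to 21.9, and for dermal fibroblast markers 5 of 10. For blood cell markers it was 3 of 9, with sums of 35.5 on Control 1 and 28.7 to 29.4 on the others. Hair follicle markers went the other way, with 0 of 13 and sums of 28.5 on Control 1 and 38.1 to 40.2 on the others. So did melanocyte markers, with 1 of 10 and sums of 25.8 on Control 1 and 29.7 to 31.5 on the others. The 1 was Mitf, named after its values were seen, at 4.83 on Control 1 and 1.89 to 2.76 on the others. The medians of these last lists were low on every array, at 2.09 to 3.09. The part of muscle, of these other cell types and of the spike-in signal in the glycolytic result was not tested, and in whole skin RNA fewer cells of a type and less RNA per cell cannot be told apart.

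**Figure D4:**
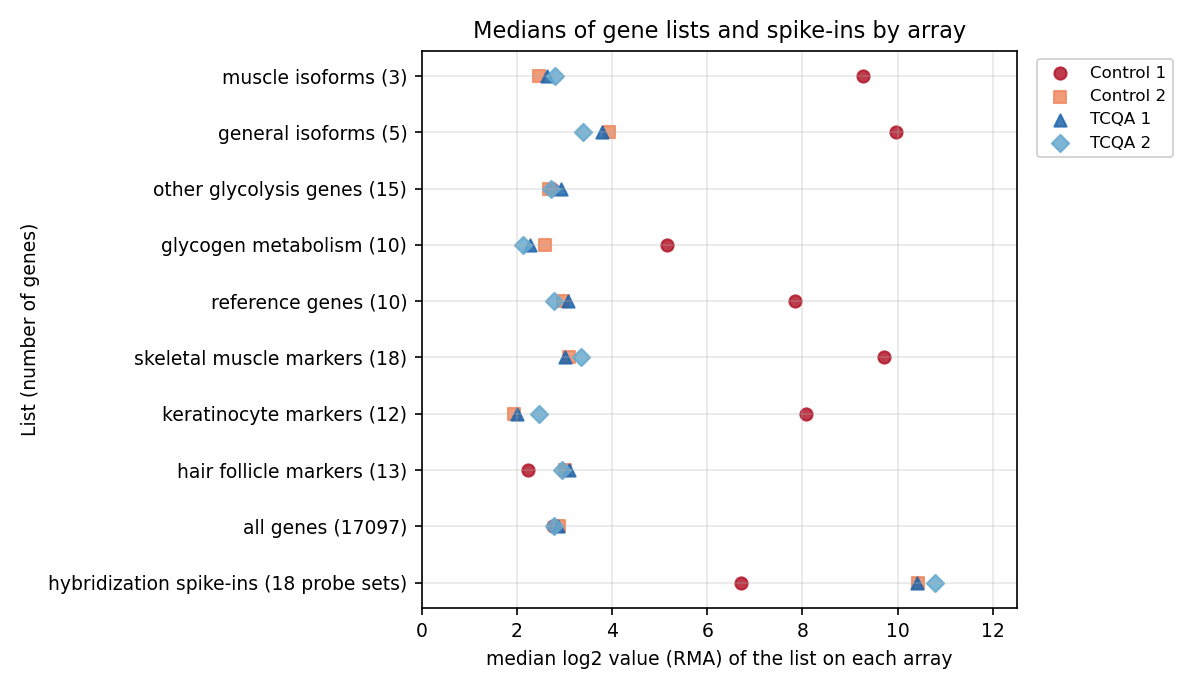
Median log2 value (RMA) of 8 gene lists, of all genes and of the hybridization spike-ins on each array, 1 point per array, with the number of genes measured. The muscle and general isoforms and the glycogen, reference, skeletal muscle and keratinocyte lists are highest on Control 1, and the hair follicle list and the spike-ins are lowest there.

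The genes whose pattern over the arrays was nearest to each kind of isoform came from several functions. Likeness was the root mean square distance, in log2 units, over 3 differences, those of Control 1, TCQA 1 and TCQA 2 from Control 2, among 17088 genes outside the members. Nearest to the median muscle isoform were the ribosomal protein genes Rps12 (0.14) and Rplp1 (0.16), the muscle gene Klhl41 (0.22), the epidermal collagen Col17a1 (0.22) and the vesicle transport gene Sar1b (0.26). That median is the profile of Pgam2 itself, and the other muscle isoforms lay at most 1.83 from it. Nearest to the median general isoform were Serpinb6a (0.060), the RNA helicase Ddx5 (0.063), the respiratory chain gene Ndufv2 (0.073), and the ribosomal protein genes Rps26 (0.079) and Rpl11 (0.10). The 5 general isoforms lay 0.33 to 1.24 from it, and the genes named were picked as the nearest of all.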

How the data were processed

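RNA from dorsal skin was labelled and hybridized to Affymetrix mouse PM array strips, 2 arrays per group. The values that the authors deposited are log2 intensities of probe sets. The submitters' processing notes list Transcriptome Analysis Console, RMA and Affymetrix Expression Console, with no version. RMA corrects the background, normalizes probes across arrays and summarises them, and whether the 4 arrays were normalized together is not given in the sources used here. Alternatives were a further quantile normalization, median centring, a filter on dim probe sets, other variance models, the replicate number as a block, other choices of probe set and leaving out each array. The number of arrays limits the precision.

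Gene names came from GEO's platform annotation. Of 45037 outside the 104 Affymetrix controls, 28898 named 1 gene, 551 named several and 15588 were unlisted; 28689 had an identifier in the RefSeq table (GRCm38.p6), and 0 symbols changed. No column was left unmapped (0).

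TCQA was compared with control by a two-sided moderated test (limma 3.58.1, R 4.3.3) with 2 residual degrees of freedom, Benjamini-Hochberg adjusted across 45037 probe sets, after a check on simulated arrays. In medians and lists a gene was its probe set with the highest mean over the 4 arrays. That mean includes Control 1, so the choice favours probe sets high on it, also in the gene counts of Control 1 above the others. With probe sets averaged, the median log2 fold change was -1.42 instead of -2.21 for reference genes and -0.89 instead of -1.31 for glycogen genes. That of the members stayed at -3.11. The 10 members and all lists were chosen with earlier results of these data known, and lists were described by counts and medians. Named genes were all members, the 3 largest fold changes of each other list except the cell type markers, and the 5 genes nearest to each isoform profile. Other isoforms of the families, Acta1, Mitf, Actb and Gusb were shown as values. The cell type marker lists were otherwise described by counts, sums and medians, and their largest fold changes were not printed. Arrays of the same number were not paired: the labels give no shared source, and their deviations from the group means correlated at -0.124 (Pearson r over 45037 probe sets).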

Additional observations from a re-analysis of the deposited data

How the results depend on the processing

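Without Control 2, which leaves Control 1 as the lone control, 14 of 14 glycolytic probe sets passed the limma adjusted p and the thresholds of the study as lower with TCQA, so leaving out 1 array moved both counts between 0 and 14; over the array the adjusted count then moved between 0 and 10538. The higher count stayed at 0. Over the array, 61 probe sets were higher and 55 lower at the thresholds of the study; leaving out each array gave 1 to 5532 higher and 0 to 7979 lower, with 29 and 107 without Control 1. Further quantile normalization gave 182 and 100, leaving out dim probe sets 3 and 16, and the unmoderated 2-group test 12 and 14; limma's trend gave 28 higher and leaving out cross-hybridizing suffixes 85 lower. With the replicate number as a block, 227 were lower, with 1 glycolytic probe set, the first of Pgk1 (unadjusted p = 0.0429, limma adjusted p 1). A crossed pairing, added after seeing the data, gave 16 higher and 0 glycolytic probe sets. The median log2 fold change of the members, -3.11, ran from -6.24 to -0.016 with 1 array left out, that of the muscle isoforms, -3.49, from -7.23 to 0.039, that of the general isoforms, -3.11, from -6.24 to -0.016, and that of the other glycolysis genes, 0.12, from 0.067 to 0.35; the last was 0.25 after quantile normalization and 0.28 without the suffixes. Quantile normalization without Control 1, also added after seeing the data, gave 98 lower and medians of 0.034, 0.034 and 0.059 for the members, muscle and general isoforms. Directions turned in single genes without Control 1: Tpi1 0.24, Pgam2 0.039, Eno3 0.25 and Ldha 0.27 (without Control 2 they were -6.24, -7.35, -7.23 and -6.49), and with that normalization Aldoa 0.059, Tpi1 0.27, Pgam2 0.034, Eno3 0.30 and Ldha 0.32. The further quantile normalization gave medians of -1.91, -2.37 and -1.91 for the same lists. The muscle minus general difference of -0.045 stayed between -0.25 and 0.16. The settings without Control 1 show only that the values depend on that array, and the cause of these changes was not tested.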

Other observations

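Genes that feed glycolysis or take its product also differed between the controls. The 10 glycogen metabolism genes all had negative fold changes with TCQA, against 43.8% of all genes. Their median was -1.31, and -0.16 without Control 1. Pygm, the glycogen phosphorylase of muscle, read 9.22 on Control 1 and 2.25 on Control 2, with 2.03 and 2.32 on the TCQA arrays. Both TCQA arrays lay below both controls for 5 of the 10, against 13.6% of all genes. That share is over all genes, whether or not Control 1 was their highest array, so it is no like comparison for a list high on Control 1. Ugp2, which makes UDP-glucose, had a fold change of -2.57, and Phka1, a phosphorylase kinase subunit, -2.06; without Control 1 they were -0.026 and -0.14.

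Of the 14 gluconeogenesis and pyruvate genes, 9 had negative fold changes, against 43.8% of all genes. Their median was -0.30, and -0.061 without Control 1. The pyruvate dehydrogenase subunits Pdhb and Pdha1 had -2.50 and -2.23, and the kinase Pdk4, which switches that enzyme off, -2.05; without Control 1 they were -0.28, 0.053 and -0.16. The 4 measured enzymes of fructose 2,6-bisphosphate, the allosteric activator of phosphofructokinase, had a median of -0.15, of 0.015 without Control 1 and of 0.18 by the probe set brightest without Control 1. Tigar, a phosphatase of that molecule, had -1.58, and -0.14 without Control 1, while Pfkfb2 and Pfkfb4 had 0.50 and -0.43, and 0.18 and -0.046 without Control 1. Melanocyte and blood cell markers, 10 and 9 genes, had medians of 0.40 and -0.11, and of -0.085 and -0.0056 without Control 1. None of these genes passed the limma adjusted p under 0.05 or the thresholds of the study.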
